A study of Mus musculus with 36 samples.

Results

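The astrocyte genes Gfap, Vim, Serpina3n, S100b, Aldoc, Glul, Slc1a2, Slc1a3, Aqp4 and Gja1, 10 in all, were followed through the mouse hippocampus at 2 ages, without and after fear learning. They were chosen by name, with earlier results of these data known. All 10 were found among the 24060 gene symbols of the RNA read counts. Their promoters were then looked up among the peaks of the histone variant H2A.Z, where a promoter peak is a peak assigned to the gene within 1000 bp of a transcription start site. Of 20213 consensus peaks, 12204 were promoter peaks, and 3 of those belonged to these genes. All mice were C57BL/6J. Young mice were 2.5 months and old mice 15.5 months of age. Naive mice of each age were compared with mice that received fear conditioning, a 5 min session in which 3 foot shocks of 0.5 mA, each 2 s long, were given, and whose brains were taken 30 min later. Each of the 4 groups (young naive, young conditioned, old naive, old conditioned) had 3 RNA libraries and 3 H2A.Z libraries, made from whole hippocampus and not from sorted astrocytes. The libraries are named below by group and by the number in their title. The labels tie no library to an animal of its own, and the spread behind each p-value may therefore be technical.

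Astrocytes are the glial cells that take up transmitter released at synapses, buffer water and potassium, supply neurons with metabolic substrates and wrap blood vessels with their endfeet. Glutamate is cleared by the transporters GLT-1 and GLAST, encoded by Slc1a2 and Slc1a3, and turned into glutamine by glutamine synthetase, encoded by Glul. When astrocytes become reactive, after injury or inflammation, they make more of the intermediate filaments Gfap and vimentin and of secreted proteins such as the protease inhibitor encoded by Serpina3n, and a rise of Gfap in the ageing brain is widely known. H2A.Z replaces the histone H2A in nucleosomes that flank transcription start sites, mostly at promoters rich in CG pairs.

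RNA libraries held between 9410843 and 13350561 counts. The fewest counts of a member in a library were 190, for Vim, and the most 77753, for Slc1a2, so counting error is widest for Vim. Expression is given in CPM, counts adjusted for the size of each library (TMM scaling). Gene length was not used, so levels are compared between libraries. Between genes they serve only as limits that choose sets of expressed genes. Neuronal, oligodendroglial, microglial and vascular markers were all measured, as a whole hippocampus would give, and no marker gene of another cell type was at 0 in all libraries. Libraries differed in how much choroid plexus they held: the sum of 10 choroid plexus markers ranged from 237 CPM in old conditioned 61 to 4715 CPM in young naive 81. Young naive 81 also had the highest summed oligodendrocyte and ependyma marker levels, at 3938 and 59.8 CPM. Several results below are also given without it.

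With age, Aldoc rose and was the only one of the 10 genes past the threshold. Averaged over naive and conditioned mice, 9 of the 10 genes had a positive difference (old minus young), with a median log2 difference of 0.12 against -0.00332 for all genes tested, of which 48.9% were positive. Only 1 of 10 passed an adjusted p of 0.05 in edgeR's quasi-likelihood test with Benjamini-Hochberg adjustment over 14405 genes, where 0.146% of all genes were called higher and 0.229% lower. With an unadjusted p under 0.05 as the limit the count was 5 of 10, each higher in old mice, against 16.6% of all genes in either direction. Groups without any overlap, every old library above every young one, were seen for Aldoc alone and for 0.833% of all genes. Since the 10 genes were chosen with earlier results known, these counts describe them and do not test them as a set. In bulk tissue, more cells of a type and more RNA per cell cannot be told apart.

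**Figure D1:**
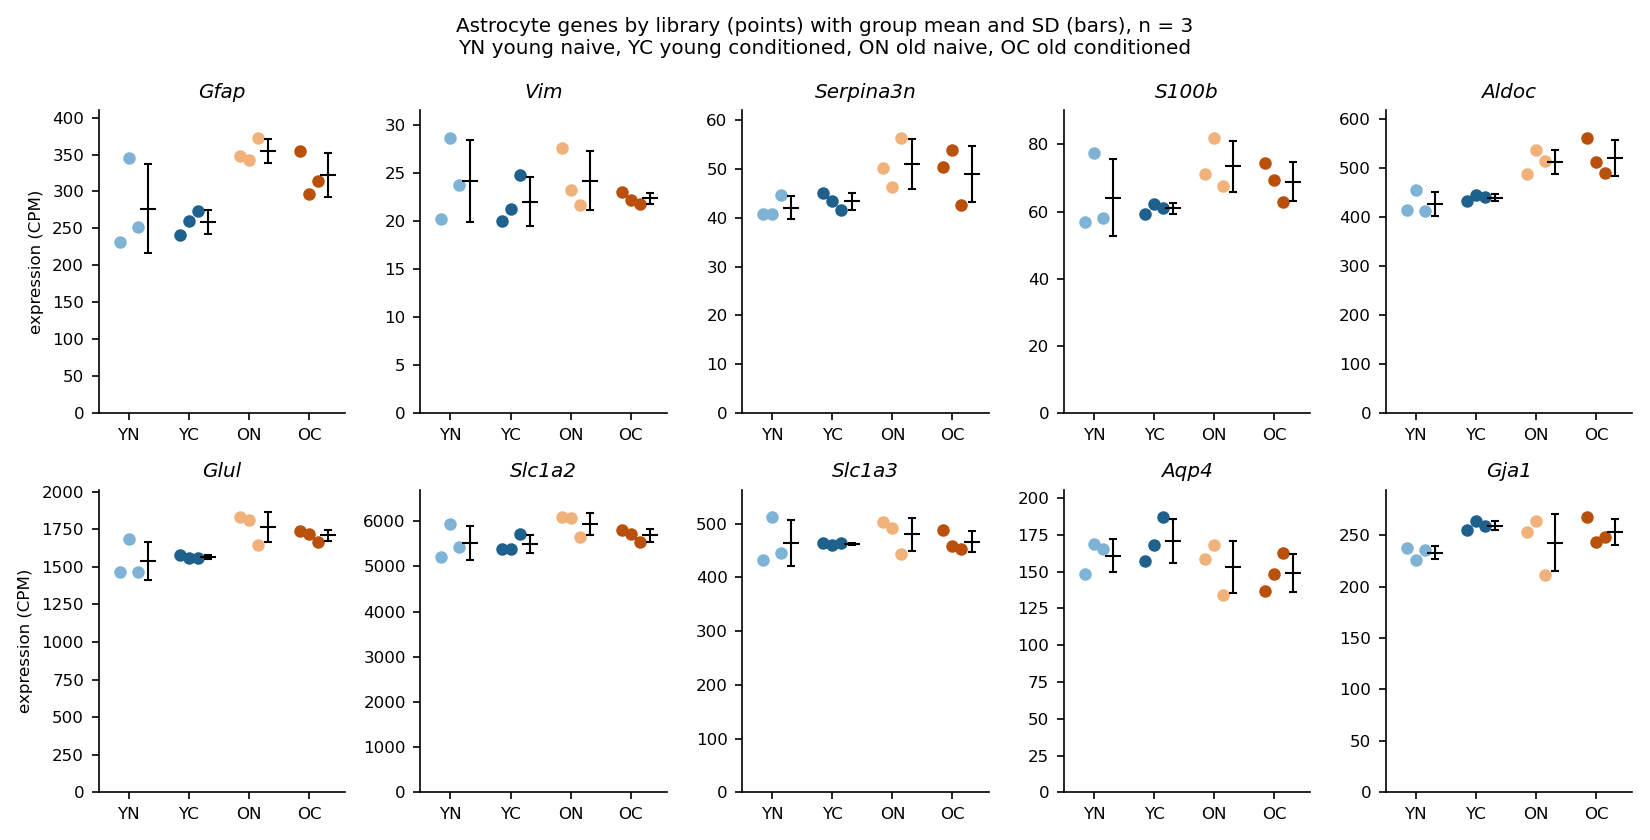
Expression in CPM (y axis, from 0) of the 10 genes in each RNA library, grouped on the x axis as young naive (YN), young conditioned (YC), old naive (ON) and old conditioned (OC). Points are libraries, and the black bars give the mean and SD of each group (n = 3). The 6 old libraries of Aldoc lie above its 6 young libraries, while for Gfap the library young naive 81 reaches the old range.

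Aldoc encodes aldolase C, the brain form of a glycolytic enzyme that is concentrated in astrocytes. It stood at 414, 455 and 412 CPM in the young naive libraries and at 432, 445 and 442 CPM in the young conditioned ones. In old naive mice it stood at 488, 537 and 514 CPM, and in old conditioned mice at 562, 513 and 489 CPM. The young and old ranges did not touch: the highest young value was 455 CPM and the lowest old value 488 CPM. Means were 433 ± 17.3 CPM in young and 517 ± 28.3 CPM in old mice (SD, n = 6 libraries each). The fitted difference was 0.26 ± 0.04 on the log2 scale (SE), a 1.19-fold higher level in old mice with an adjusted p of 0.0230 in edgeR. From lowest to highest the groups ran young naive, young conditioned, old naive and old conditioned, and within each age the 2 conditions overlapped. The call depended on which libraries were kept, and it held in 5 of the 12 fits with 1 library left out. The difference stayed between 0.23 and 0.28 in all 12. The call was lost without young naive 83, young conditioned 73, 75 or 77, old naive 69, or old conditioned 61 or 63. There the adjusted p in edgeR was between 0.0546 and 0.0805. Over all 20 other settings the adjusted p of Aldoc ranged from 3.76e-05 (DESeq2) to 0.0805.

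Glul encodes glutamine synthetase, the enzyme that closes the glutamate to glutamine cycle inside astrocytes. It was at 1466, 1684 and 1464 CPM in young naive, 1579, 1561 and 1557 in young conditioned, 1830, 1811 and 1648 in old naive and 1741, 1720 and 1665 CPM in old conditioned libraries. Apart from young naive 81, every young library lay below every old one. Its age difference was 0.16 ± 0.04 (log2, SE), with an adjusted p of 0.1001 in edgeR. Without young naive 81 the difference was 0.20 with an adjusted p of 0.0170, and over all settings the adjusted p ranged from 0.0170 to 0.303.

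The intermediate filaments Gfap and Vim differed from each other. Gfap, the main filament protein of mature astrocytes, was at 232, 346 and 252 CPM in young naive, 241, 260 and 274 in young conditioned, 349, 343 and 373 in old naive and 355, 297 and 315 CPM in old conditioned libraries. A single young library, naive 81, reached the old range, and the other 5 lay below all 6 old libraries. Gfap had the largest age difference of the 10 genes, 0.34 ± 0.08 on the log2 scale (SE) or 1.26-fold, and at an adjusted p of 0.0715 in edgeR it missed the threshold. Group means ran from 258 ± 16.1 CPM in young conditioned through 277 ± 60.6 in young naive and 322 ± 29.9 in old conditioned to 355 ± 15.8 CPM in old naive mice (SD, n = 3). Neighbouring groups in that order overlapped, except old conditioned and young naive taken without library 81. Without young naive 81 the Gfap difference was 0.44 with an adjusted p of 0.00112; over all 20 other settings it stayed positive, between 0.22 and 0.44, with adjusted p between 0.00112 and 0.198.

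Vim encodes vimentin, the filament partner of Gfap that vascular, ependymal and meningeal cells also make. It was at 20.1, 28.6 and 23.7 CPM in young naive, 20, 21.2 and 24.8 in young conditioned, 27.6, 23.2 and 21.7 in old naive and 23, 22.2 and 21.8 CPM in old conditioned libraries. The 4 groups overlapped, and the highest value was that of young naive 81. Old minus young was 0.01 ± 0.09 (log2, SE), and its sign changed with the scaling (-0.00191 with upper-quartile factors).

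Serpina3n and S100b encode proteins that astrocytes secrete, a serine protease inhibitor and a calcium-binding protein. Serpina3n was at 40.8, 40.7 and 44.8 CPM in young naive, 45.1, 43.4 and 41.7 in young conditioned, 50.2, 46.4 and 56.4 in old naive and 50.3, 53.9 and 42.7 CPM in old conditioned libraries. Of the 6 old libraries only old conditioned 65 fell within the young range. The age difference of Serpina3n was 0.22 ± 0.07 (log2, SE; 1.17-fold) at an adjusted p of 0.134 in edgeR, and no setting tried brought it past the threshold (0.078 to 0.288). S100b averaged 62.6 ± 7.58 CPM in young and 71.2 ± 6.51 CPM in old mice (SD, n = 6), and the young range, 56.9 to 77.5 CPM, overlapped the old range of 63.0 to 82.0 CPM. Its difference was 0.18 ± 0.08 (log2, SE) with an adjusted p of 0.248 in edgeR. Without young naive 81, its highest young library, the difference was 0.27 with an adjusted p of 0.0339 in edgeR. That was the only 1 of 20 other settings with a call. Over all of them the difference ran from 0.05 to 0.27, with adjusted p (edgeR or DESeq2) from 0.0339 to 0.802.

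The glutamate transporters, the water channel and the gap junction protein did not pass the test with age. Slc1a2, the main glutamate transporter of the forebrain, ranged from 5205 to 5937 CPM in young and from 5529 to 6089 CPM in old libraries, a difference of 0.08 ± 0.04 (log2, SE; adjusted p 0.325 in edgeR). Slc1a3, the transporter shared with radial glia, ranged from 432 to 512 CPM in young and from 444 to 503 CPM in old libraries, and its difference was 0.03 ± 0.05. The old range of Slc1a3 lay inside the young one. Aqp4, the water channel of perivascular endfeet, was the one member with a negative difference, -0.13 ± 0.06 (adjusted p 0.317): it averaged 166 ± 13 CPM in young and 151 ± 14.1 CPM in old mice, with overlapping libraries. Gja1, which encodes the gap junction protein connexin 43, averaged 246 ± 15.1 CPM in young and 248 ± 20.1 CPM in old mice, a log2 difference of 0.01 ± 0.05.

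**Figure D2:**
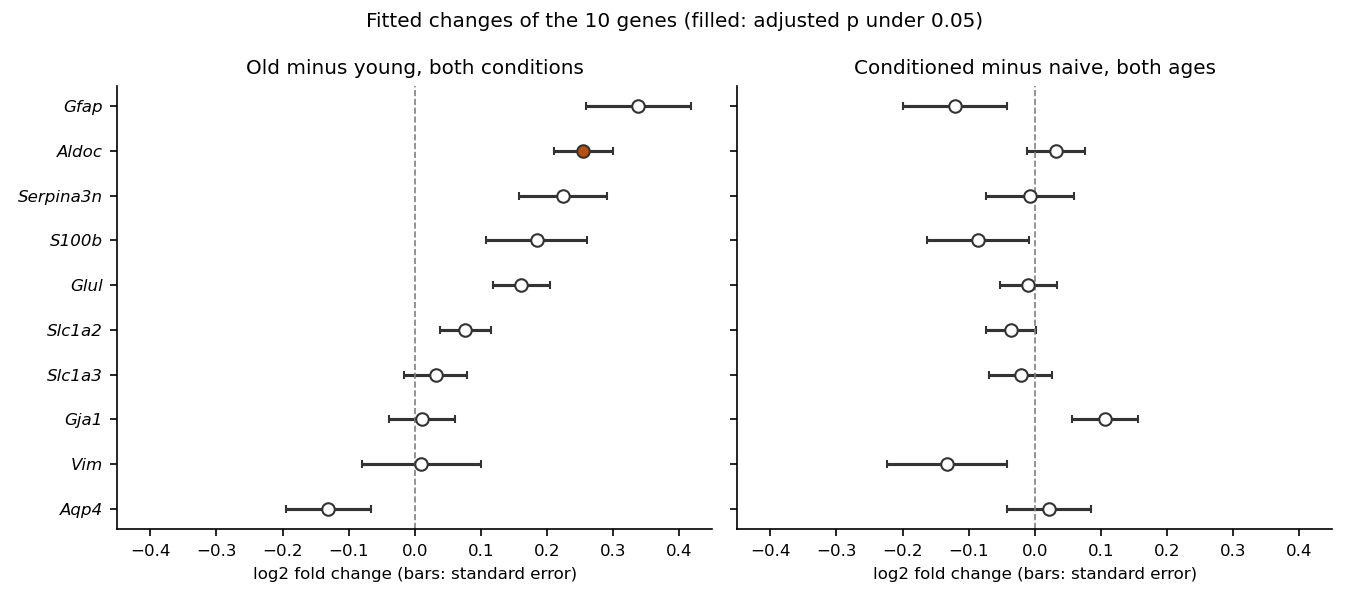
Fitted log2 fold changes (x axis) of the 10 genes (y axis) for old minus young over both conditions on the left and conditioned minus naive over both ages on the right, with standard errors as bars and filled points where the adjusted p was under 0.05. Aldoc at 0.26 on the left is the only filled point; Gfap at 0.34 is larger but has the wider bar, and Aqp4 at -0.13 is the only member left of 0 with age.

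Taken in naive and in conditioned mice apart, age gave no called member in edgeR, where 0.0347% of all genes were called higher in each and 0.0208% and 0% lower. At an unadjusted p under 0.05 there were 4 of 10 members in naive mice (Gfap, Aldoc, Serpina3n and Glul, all higher in old mice), against 10.3% of all genes, and 3 of 10 in conditioned mice (Gfap and Aldoc higher, Aqp4 lower), against 13.4%. In naive mice the 3 old and 3 young libraries were fully apart, with old above young, for Aldoc and Serpina3n (2 of 10, against 7.09% of all genes). In conditioned mice the same held for Gfap, Aldoc, S100b and Glul (4 of 10, against 11.3%). Aldoc differed by 0.26 ± 0.06 in naive and by 0.25 ± 0.06 in conditioned mice (log2, SE), and Gfap by 0.36 ± 0.11 and 0.32 ± 0.11. The test of the difference between these age effects, the interaction of age and training, gave no called member and 0% of all genes in edgeR. No member reached an unadjusted p under 0.05 there, against 7.20% of all genes. DESeq2 called Aldoc in naive mice (adjusted p 0.0311) and in conditioned mice (adjusted p 0.0220). The adjusted p of Aldoc over all settings ran from 0.0311 to 0.504 in naive and from 0.0220 to 0.757 in conditioned mice. Without young naive 81, Gfap was called in naive mice (0.55, adjusted p 0.0219 in edgeR).

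Fear conditioning called none of the 10 genes in edgeR or DESeq2. Over both ages 0.0764% of all genes were called higher and 0% lower, in young mice 0.0278% and 0%, and in old mice 0.0139% and 0%. The median log2 difference of the members (conditioned minus naive, both ages) was -0.0156 against 0.000384 for all genes, and 3 of 10 were positive. Gja1 was the one member with an unadjusted p under 0.05, at 0.107 ± 0.050 on the log2 scale (SE; adjusted p 0.713), against 6.99% of all genes. It stood at 238, 226 and 235 CPM in young naive and at 255, 264 and 259 CPM in young conditioned libraries, against 253, 263 and 211 CPM in old naive and 267, 244 and 248 CPM in old conditioned libraries. In young mice every conditioned library lay above every naive one, which was so for 7.14% of all genes, and in old mice the groups overlapped. In young mice the difference of Gja1 was 0.15 ± 0.07 with an unadjusted p of 0.0457 and an adjusted p of 0.745, where 6.63% of all genes had an unadjusted p under 0.05. In old mice no member had one, against 7.16% of all genes. Gfap was at -0.12 ± 0.08 (log2 of conditioned over naive, both ages, SE) and Vim at -0.13 ± 0.09, neither past the threshold. Both values shrank without young naive 81: Gfap was then at -0.023 and Vim at -0.062. In that setting Gfap in young mice alone was at 0.09, and the members' median was 0.00697 with 5 of 10 positive. In old mice, a comparison that does not use that library, Gfap was at -0.14 and Vim at -0.12, neither past the threshold.

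Most pairs of the 10 genes moved together from library to library, but Serpina3n did not once group means were subtracted. Its r with the other members then ran from -0.68 (Aqp4) to 0.04 (Aldoc). Over the 12 libraries, 36 of 45 gene pairs had a positive Pearson correlation of log2 CPM, with a median r of 0.42. After group means were subtracted the median was 0.44, and 35 pairs were positive. These values describe libraries that share depth, scaling and tissue makeup. No share over pairs of other genes is given here, so they are not shown to be particular to the 10. Among pairs the transporter Slc1a2 and S100b went together most closely (r = 0.88), and after subtraction of group means Slc1a3 and Glul did (r = 0.96). Aqp4 and Serpina3n had the lowest value (r = -0.70). Of 10423 other genes with a mean log2 CPM of 3 or more, those most like Gfap over the 12 libraries were Grin2c (r = 0.92), Mrps34 (0.92), C1qb (0.91), Kcnj4 (0.90) and Prex1 (0.90). Of these C1qb, a complement gene made by microglia, was itself called higher in old mice (log2 difference 0.42, adjusted p 0.0382 in edgeR). Those most like Serpina3n were Tspan5 (0.93), Camta2 (0.90), Hpca (0.89), Camk2b (0.89) and Spink8 (0.88), of which Hpca and Camk2b are known as neuronal genes.

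Other astrocyte genes gave a wider frame for these 10. Of 38 further astrocyte markers 37 were in the files and were tested. With age 1 of 37 was called higher in edgeR (2 by DESeq2), where 0.146% of all genes were called higher in edgeR. It was Gpr37l1, a receptor of astrocytes, which rose by 0.23 ± 0.05 on the log2 scale (SE; adjusted p 0.0460 in edgeR). That call was lost in 13 of 20 other settings, with adjusted p from 0.00284 to 0.139: with upper-quartile factors, at least 1 CPM in every library, or the nuclear-retained RNA covariate, without young naive 81 and old conditioned 61 together, and without young naive 79 or 83, young conditioned 73, 75 or 77, old naive 67 or 69, or old conditioned 61 or 63. The next by p were Cst3, the protease inhibitor cystatin C (0.26, adjusted p 0.0592), and Atp1b2, a sodium pump subunit (0.16, adjusted p 0.151). Of the 37, 29 had positive differences and the median was 0.0756 against -0.00332 for all genes. At an unadjusted p under 0.05 in edgeR, 7 of the 37 were higher and 1 was lower in old mice, against 16.6% of all genes in either direction. Of 33 further reactive astrocyte genes 24 passed the filter on low counts and none was called (3 of 24 at an unadjusted p under 0.05 in edgeR, against 16.6% of all genes; none called by DESeq2); 14 were positive, with a median of 0.0868. The smallest p among these belonged to Osmr, the oncostatin M receptor, at 0.36 ± 0.10 (adjusted p 0.129). Aspg (0.78 ± 0.28) and Ggta1 (0.36 ± 0.14) followed.

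Lists for the members' own pathways held no called gene with age in edgeR. Their counts at an unadjusted p under 0.05 stand beside 16.6% of all genes at that limit. DESeq2 called 1 glutamate cycle gene, 2 glycolysis genes and 1 relative higher in old mice and 1 endfoot gene lower. In the glutamate-glutamine cycle 8 of 17 genes were positive with a median of -0.000898. An unadjusted p under 0.05 was held by 5 of 17, 3 higher and 2 lower in old mice. The smallest were those of the vesicular glutamate transporter Slc17a7 (0.18) and the aspartate aminotransferases Got1 (0.12) and Got2 (0.09). Slc17a7 was also on the list of neuron markers. All 15 glycolysis genes tested were positive, with a median of 0.0886, 8 of them at an unadjusted p under 0.05, led by Aldoa (0.15), the muscle-type relative of Aldoc, Gapdh (0.16) and Pgam1 (0.11). Among 10 intermediate filament partners 8 were positive and 2 had an unadjusted p under 0.05, the neurofilaments Nefl (0.16) and Nefm (0.19). Of 13 genes for endfeet and for water or potassium handling 6 were positive, and 4 had an unadjusted p under 0.05, all lower in old mice. Dmd, the dystrophin gene that anchors endfeet, was at -0.22 and Trpv4 at -1.18, while Aqp1 (-2.06), a water channel of the choroid plexus, was also on the choroid plexus list. Among 17 tested relatives of the members (other aldolases, aquaporins, connexins, glutamate transporters, S100 and Serpina3 genes) none was called, and 2 had an unadjusted p under 0.05. These were Aldoa and Aqp1, and Gjc3, a connexin of oligodendrocytes, came next at -0.16. For conditioning over both ages, none of these lists held a called gene.

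Markers of other cells moved with age beside the members, and their part in the members' differences was not tested directly. All 12 microglia markers were positive (median 0.28), and Ctss (0.45, adjusted p 0.000582), C1qb (0.42) and Tmem119 (0.40, adjusted p 0.0485) were called higher in old mice in edgeR, and 7 of the 12 by DESeq2. Ctss was called in all 20 other settings, C1qb in 8 and Tmem119 in 7; the calls of both were lost with upper-quartile factors, with the nuclear-retained RNA covariate and when any 1 of 10 libraries (each but young naive 81 and old conditioned 65) was left out, and that of Tmem119 also with at least 1 CPM in every library. The summed microglial level ran from 353 to 408 CPM in young and from 430 to 468 CPM in old libraries, without overlap. Endothelial markers were positive for 7 of 8 (median 0.28; 114 to 120 CPM against 129 to 147 CPM), and neuron markers for 9 of 10 (median 0.09; 9889 to 11234 CPM against 11143 to 11844 CPM), with none called in edgeR and 2 of each by DESeq2. Oligodendrocyte markers were negative for 10 of 10 (median -0.17; 2468 to 3938 CPM against 2565 to 3134 CPM; none called in edgeR, 2 by DESeq2), and precursor markers for 3 of 5 (median -0.02; 127 to 162 CPM in all). Choroid plexus (median -1.59) and ependyma markers (median -0.55) were negative in every case, without a call in edgeR or DESeq2. Their summed levels were 239 to 4715 CPM and 18.7 to 59.8 CPM in young against 237 to 2930 CPM and 16.6 to 31.6 CPM in old libraries. Mural and meningeal markers had a median of -0.13 (130 to 239 CPM in young, 106 to 207 CPM in old), and Col1a2, a collagen of meningeal cells, fell by 0.81 (adjusted p 0.0454 in edgeR). The Col1a2 call was lost without young naive 81 and old conditioned 61 together and without any 1 of 9 libraries (each but young naive 79 and 81 and old naive 69), with adjusted p of up to 0.109. Of 7 nuclear-retained RNAs, transcripts that stay in the nucleus, 6 were lower in old mice (median -0.43) without a call in edgeR or DESeq2, and their summed level ran from 9960 to 21365 CPM in young and from 7833 to 15550 CPM in old libraries. At an unadjusted p under 0.05 in edgeR, 10 of 12 microglia, 5 of 8 endothelial and 6 of 10 neuron markers were higher in old mice. Lower were 10 of 10 choroid plexus, 3 of 8 ependyma and 3 of 10 oligodendrocyte markers and 6 of 7 nuclear-retained RNAs. Precursor markers had 1 of 5 lower, and mural and meningeal markers 1 of 9 higher and 4 lower. Of all genes 16.6% passed that limit in either direction.

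**Figure D3:**
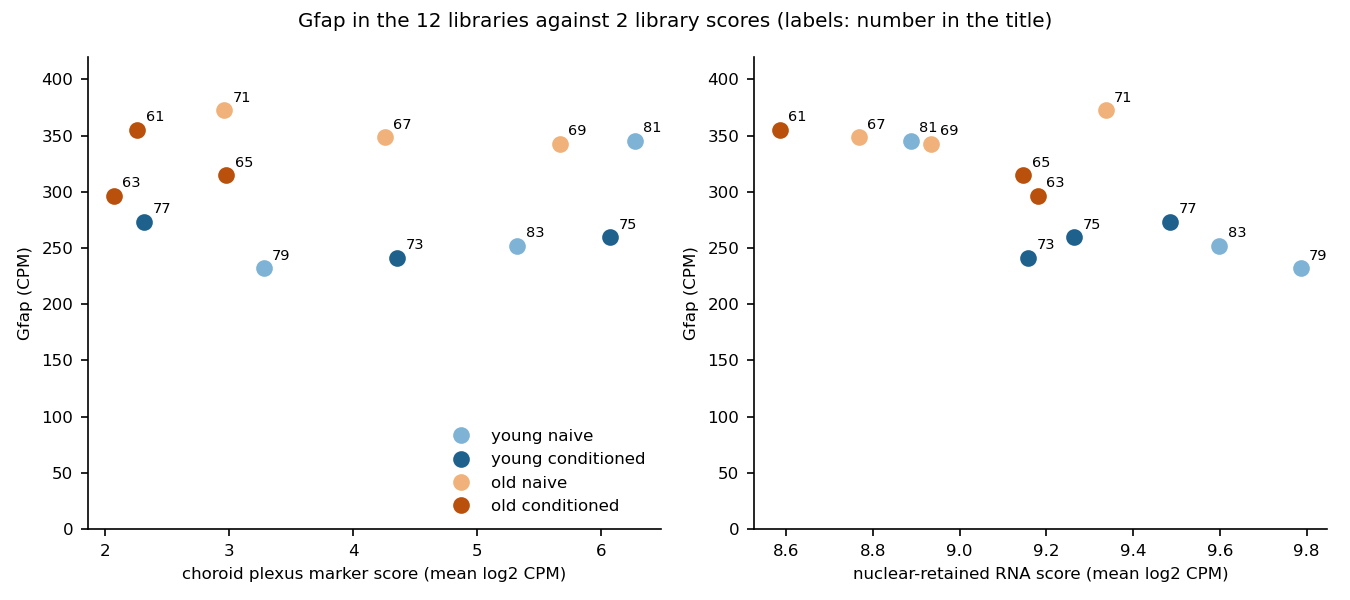
Gfap in CPM (y axis) in the 12 RNA libraries against the mean log2 CPM of choroid plexus markers (left) and of nuclear-retained RNAs (right), each point 1 library labelled by its number and coloured by group. Young naive 81, at 346 CPM, has the highest choroid plexus score (6.28) and the lowest nuclear-retained RNA score among young libraries (8.89). Young conditioned 75, with a choroid plexus score of 6.07, is at 260 CPM. The library with the lowest nuclear-retained RNA score is old conditioned 61 (8.59).

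Settings that take library makeup into the fit moved the calls in opposite directions. With the choroid plexus score in the fit, Aldoc, Gfap (0.38, adjusted p 0.0305 in edgeR) and Glul (0.20, adjusted p 0.0451) were called higher in old mice. With the nuclear-retained RNA score in the fit none of the 10 was called: the difference of Aldoc was 0.21 with an adjusted p of 0.0736, that of Gfap 0.22 with an adjusted p of 0.186, and 6 of 10 were positive with a median of 0.0388. Among the 37 other astrocyte markers 18 were then positive, with a median of -0.00136. Both scores were lower in old than in young mice on average. The median log2 difference of their genes was -1.59 for choroid plexus and -0.43 for nuclear-retained RNAs. In both fits age and score are therefore partly estimated from the same libraries.

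Consensus H2A.Z peaks were found at few of these promoters. The libraries came from whole hippocampus, so a promoter without a peak may still hold H2A.Z in astrocytes. A promoter peak was listed for 3 of the 10 genes (30.0%): Glul, Slc1a2 and Vim. Of all 13841 genes with a mean of 1 CPM or more 76.8% had one. Of the 7215 genes at or above the lowest member in mean CPM, without regard to gene length, 86.7% did. Among the 37 other astrocyte markers 67.6% had a promoter peak, among 24 reactive astrocyte genes 54.2%, among 10 neuron markers 90.0%, among 10 oligodendrocyte markers 40%, among 8 endothelial markers 37.5% and among 12 microglia markers 8.33%. The 3 peaks, on the build mm10, were chr1:153899382-153900952 at the start of Glul (1570 bp), chr2:102658232-102659831 at Slc1a2 (1599 bp) and chr2:13573527-13575181 at Vim (1654 bp). The authors annotated the first as exonic in a noncoding RNA and the other 2 as exonic. Outside the promoter window, a Gja1 peak at chr10:56378581-56379094 was intronic and 1539 bp from its start, and a Gfap peak at chr11:102892975-102893619 was exonic and 3903 bp from its start. The Gfap peak was called in 1 library of each group. A second Glul peak lay 122140 bp away. Start sites of Aldoc were 3973 and 5098 bp from the nearest peak edge, that of S100b 15470 bp, that of Serpina3n 64559 bp and that of Slc1a3 141269 bp.

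The sequence before the start sites shows how the promoters with and without a peak differ in CG pairs. RefSeq promoter entries (GRCm38.p6) were matched for 9 of the 10 genes. The 250 bases before the start are printed 5′ to 3′ on the strand of the gene for the 2 whose start lies in a peak and for the 3 members named above with the largest age differences, with every CG pair in capitals. They lie at chr1:153899679-153899928 (Glul, plus strand), chr2:13574061-13574310 (Vim, plus), chr11:102897201-102897450 (Gfap, minus), chr11:78322823-78323072 (Aldoc, plus) and chr12:104406458-104406707 (Serpina3n, plus).
Glul: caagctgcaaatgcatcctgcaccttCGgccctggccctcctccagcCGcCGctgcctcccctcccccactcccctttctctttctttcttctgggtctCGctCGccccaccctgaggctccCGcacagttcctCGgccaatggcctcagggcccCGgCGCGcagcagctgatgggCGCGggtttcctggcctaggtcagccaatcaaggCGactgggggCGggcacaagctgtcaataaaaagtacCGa
Vim: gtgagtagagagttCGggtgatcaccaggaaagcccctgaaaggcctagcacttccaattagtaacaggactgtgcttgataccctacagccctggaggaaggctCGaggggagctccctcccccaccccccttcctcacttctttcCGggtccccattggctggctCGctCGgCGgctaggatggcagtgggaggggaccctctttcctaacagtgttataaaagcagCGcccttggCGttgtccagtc
Gfap: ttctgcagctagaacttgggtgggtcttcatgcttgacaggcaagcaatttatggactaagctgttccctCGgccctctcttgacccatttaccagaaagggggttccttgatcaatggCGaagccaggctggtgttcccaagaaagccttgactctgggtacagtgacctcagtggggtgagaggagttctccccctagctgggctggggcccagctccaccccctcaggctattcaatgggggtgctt
Aldoc: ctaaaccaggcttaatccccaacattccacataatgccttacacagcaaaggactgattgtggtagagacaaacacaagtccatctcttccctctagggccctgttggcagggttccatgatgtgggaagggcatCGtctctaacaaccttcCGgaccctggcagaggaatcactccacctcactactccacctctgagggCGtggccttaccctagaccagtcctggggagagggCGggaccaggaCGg
Serpina3n: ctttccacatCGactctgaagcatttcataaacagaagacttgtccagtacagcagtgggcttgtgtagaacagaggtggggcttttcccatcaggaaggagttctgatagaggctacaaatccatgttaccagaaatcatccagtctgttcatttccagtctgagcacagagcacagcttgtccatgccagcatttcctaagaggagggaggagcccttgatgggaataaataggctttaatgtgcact
The Glul window held 15 CG pairs and that of Vim 8, against 2 for Gfap, 5 for Aldoc and 1 for Serpina3n. A second Aldoc start had 3, Gja1 had 6, and S100b and Slc1a3 had 2 each. Of expressed genes, 9951 windows whose start lay in a consensus peak had a median of 18 CG pairs and 3359 without a peak a median of 5, so Glul lay near the former, Vim was nearer the latter although its start is covered, and Gfap, S100b, Slc1a3 and Serpina3n below the latter. The RefSeq entry of Slc1a2 is for another start, 46607 bp from the nearest peak edge, and its single CG pair says nothing of the promoter with the peak. The letters TATAAA, searched on both strands, occurred once before Vim on the plus strand, and once before Slc1a3 on the minus strand; they were in 4.21% of the windows with a peak and in 12.4% of those without.

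**Figure D4:**
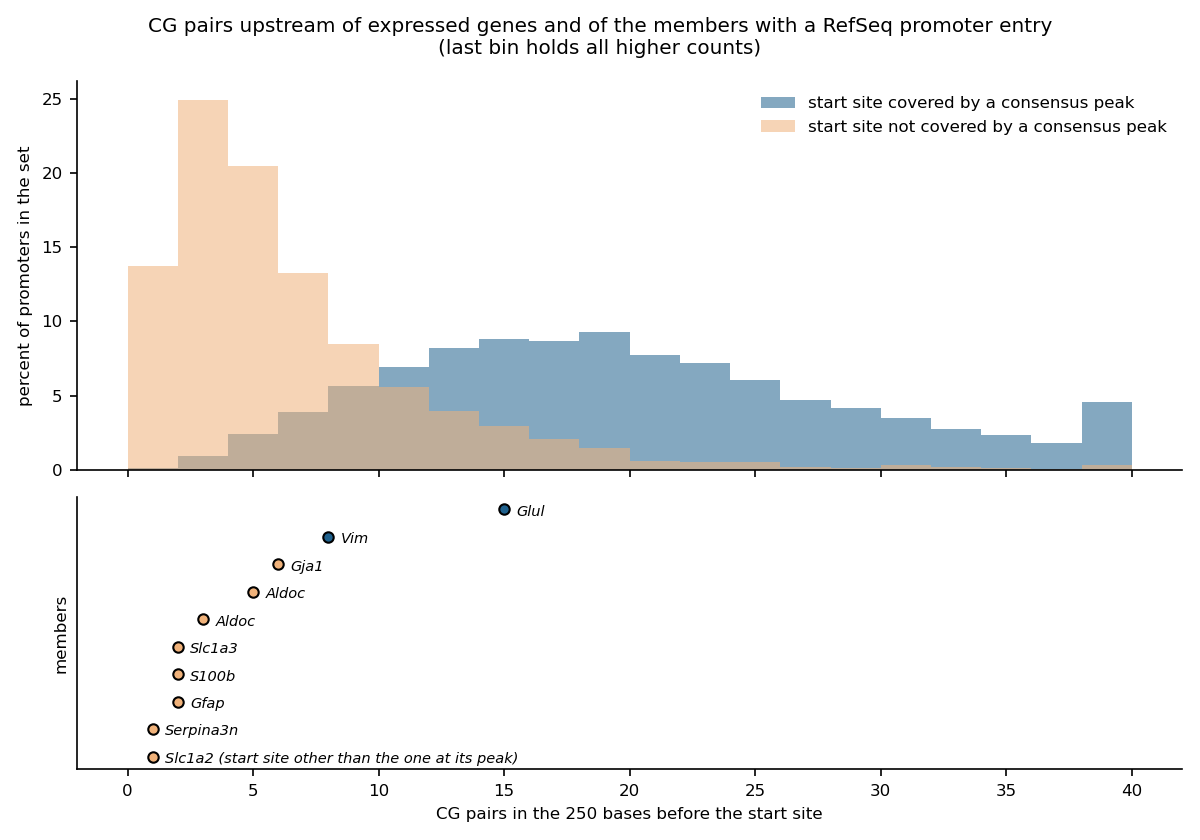
CG pairs in the 250 bases before the start site (x axis). The upper panel gives the percent of promoters of expressed genes per bin of CG pairs, for starts covered or not covered by a consensus H2A.Z peak, and the lower panel marks each RefSeq promoter entry of the members in the same colours. Glul at 15 and Vim at 8 are the covered ones, and the others lie between 1 and 6.

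Levels at the 3 promoters with a peak are those of the authors' deposited table, log2 means per group. Whether they are scaled for peak width is not stated, so ranks between peaks may partly follow width. Ranked as deposited, Glul was among the high promoters, at 7.73 in young naive mice against a median of 6.79 over promoter peaks. Its percentiles ran from 81.7 to 91.1 in the 4 groups. Slc1a2 lay between percentiles 71.2 and 82.8, and Vim between 32.4 and 65.1. Glul and Slc1a2 were called in all 3 libraries of every group, and Vim in 3 young naive libraries and in 2 libraries of each other group. In the same table all 3 overlapped regions of H3K4me3, H3K27ac and H3K4me1, marks of active promoters and enhancers, and only Slc1a2 overlapped H3K27me3, a repressive mark. No library of this series measured these marks, and the tissue and age behind the mark regions are not stated.

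The folds that follow rest on reading the letter T in the column names as conditioned, which the table does not spell out. In the authors' deposited table all 3 promoters had negative folds of conditioned over naive mice, and Vim in young mice was the only one past the authors' FDR of 0.05. There H2A.Z at Vim was 3-fold lower in conditioned than in naive young mice (log2 fold -1.585, p = 0.000253, FDR 0.00490 in the authors' deposited table). In young mice 14.5% of all promoter peaks were called lower and 0.0164% higher, the median log2 fold was -0.63, and 11.4% of promoter peaks had a lower fold than Vim. In young mice Glul was at -0.71 (FDR 0.251) and Slc1a2 at -0.31 (FDR 0.657) in the authors' deposited table. In old mice, where 15.9% of promoter peaks were called lower and 0% higher, the folds in the authors' deposited table were -0.68 for Glul (FDR 0.378), -0.81 for Slc1a2 (FDR 0.160) and -0.94 for Vim (FDR 0.441). All 3 lay above the promoter median of -1.03. The RNA of Vim overlapped between young naive and young conditioned mice (24.2 ± 4.26 against 22.0 ± 2.50 CPM, SD, n = 3).

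With age no promoter peak was called in either direction (0% in naive and 0% in conditioned mice). In the authors' deposited table the folds, old over young, were 0.30 for Glul, 0.45 for Slc1a2 and -0.16 for Vim in naive mice, against a promoter median of 0.44, and 0.33, -0.04 and 0.49 in conditioned mice, against 0.10. The table's folds differ from the differences of its group levels by a constant for all peaks, -0.33 for age in naive mice, -0.12 for age in conditioned mice, 0.22 for conditioning in old mice and 0 in young mice, and how this scaling was made is not stated. For 2 of the values the sign depends on it: the levels of Vim in naive mice differed by 0.18 and those of Slc1a2 in conditioned mice by 0.08, where the folds are negative, so no direction is drawn for either. In naive mice 4.99% of promoter peaks had a lower fold than Vim. Aldoc, the member whose RNA rose with age, and Gfap had no promoter peak to compare.

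**Figure D5:**
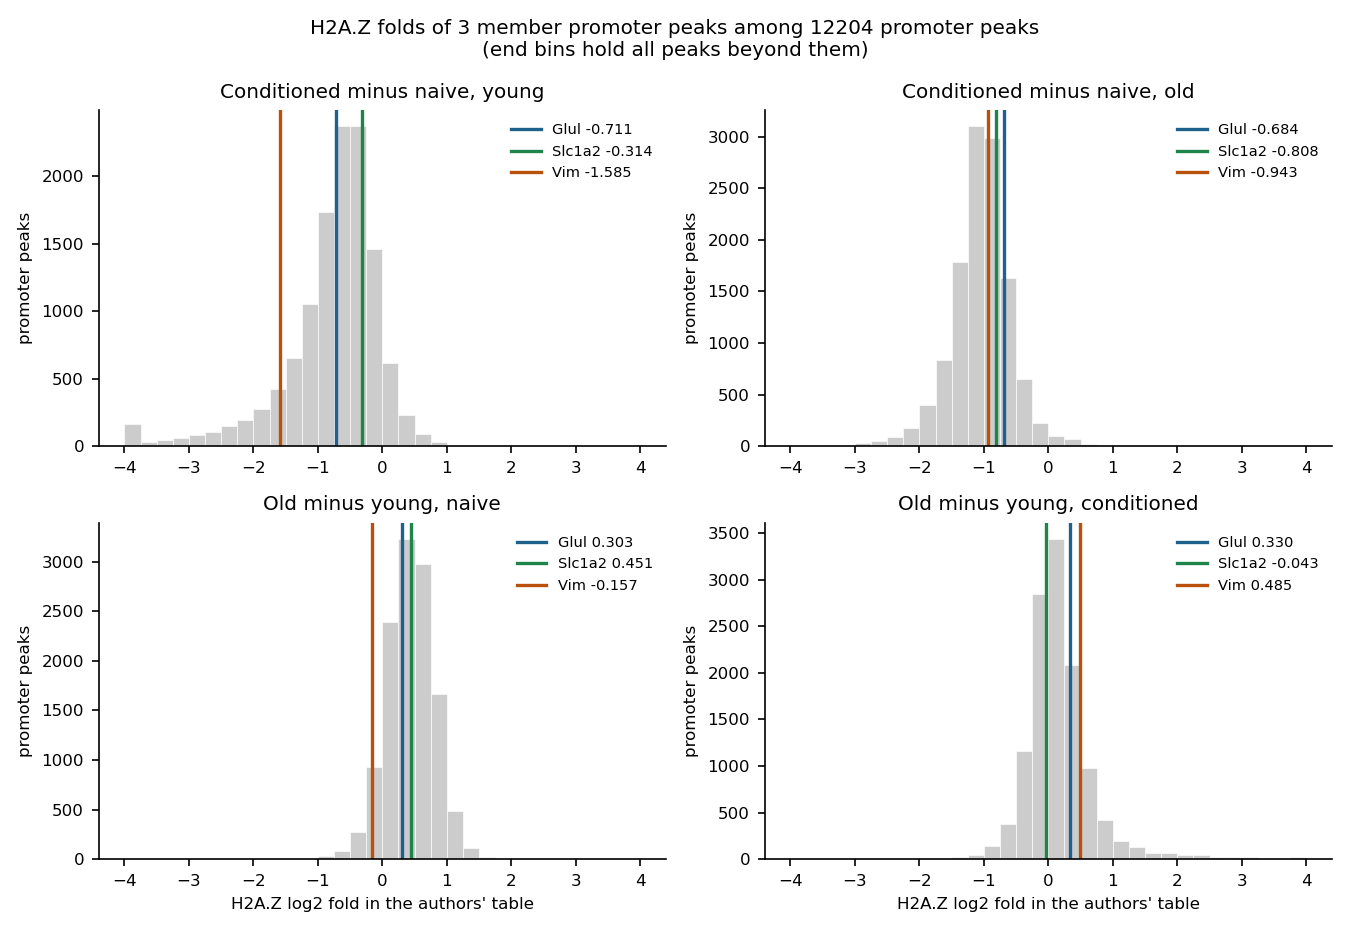
Histograms of the log2 H2A.Z fold in the authors' deposited table (x axis) over all promoter peaks (y axis, number of peaks) for 4 comparisons, with the folds of Glul, Slc1a2 and Vim as vertical lines. Vim lies toward the low end at -1.585 in young mice after conditioning and at -0.16 in the comparison of ages in naive mice.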

How the data were processed

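RNA was sequenced in 12 hippocampal libraries and H2A.Z was immunoprecipitated in 12 others, 3 for each of 4 groups taken from the labels; inputs were not analysed here. The RNA tables that the authors deposited hold raw read counts by gene symbol, 1 table a library. For H2A.Z they deposited 1 table of consensus peaks on mm10, from which these were used: log2 mean levels per group, log2 folds between groups, and p-values and FDR computed by the authors. As deposited, it also counts the libraries that called each peak and gives distances to genes and histone marks. The letter T in its column names was taken to mean conditioned, because N was taken to mean naive. The submitters' processing notes list TopHat and HTSeq 0.6.1p2, Bowtie2 2.2.1, DiffBind 1.12.2 and MACS2 2.0.10, without saying which step each served. For the RNA counts, build, annotation and strand setting were not given in the sources used here, so overlapping or antisense genes could share reads.

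RNA was tested with edgeR 4.0.16 in R 4.3.3: filterByExpr, TMM factors, 1 quasi-likelihood fit of the 4 groups over 12 libraries, and Benjamini-Hochberg adjustment over 14405 genes at 0.05. Standard errors come from the log2 fold change and the F statistic. Scores are mean log2 CPM over a list with a prior count of 2. No 2 replicates agreed within sampling noise. The fit was tested on simulated counts with known changes. H2A.Z folds were signed so that positive means higher in conditioned or in old mice, and were given no test, since the table holds no values per library. Promoters were matched by symbol in RefSeq (GRCm38.p6); Python 3.11.15, pandas 2.3.3 and matplotlib 3.10.9 were used.

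The 10 genes and the comparison lists were chosen with earlier results of these data known. Named beyond the 10 are called list genes, the 3 smallest p of each main list with age, and the 5 genes most like Gfap and Serpina3n. Other settings were DESeq2 1.42.0, other scalings and filters, 2 groups at a time, covariates, and each library left out.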

Additional observations from a re-analysis of the deposited data

How the results depend on the processing

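No paired analysis was possible because each RNA title number belongs to 1 library and the H2A.Z table holds group means only. For age over both conditions, 1 member was called as reported; 2 were called with no filter on low counts, 3 with DESeq2, 3 with the choroid plexus covariate, 3 without young naive 81 and old conditioned 61 together, 0 with the nuclear-retained RNA covariate, and 0 to 4 when 1 library was left out (4 without young naive 81). For age in naive mice the count of 0 became 1 with DESeq2, 3 without those 2 libraries together, and 0 to 1 with 1 library left out; in conditioned mice it became 1 with DESeq2, which gave 2 members no adjusted p. The cause of these shifts was not tested. Counts of called members for training and for the interaction stayed at 0 in all settings run. Differences of members near 0 changed sign in some settings. For age these were Vim (-0.00191 with upper-quartile factors, -0.108 with the nuclear-retained RNA covariate, -0.0437 to 0.0819 with 1 library left out), Gja1 (-0.0200 without the 2 libraries together, -0.0298 with the nuclear-retained RNA covariate, -0.0198 to 0.0571 with 1 library left out) and Slc1a3 (-0.0574 with the nuclear-retained RNA covariate). For training over both ages these were Slc1a3 (0.000852 without the 2 libraries, 0.0209 with the choroid plexus covariate, -0.0474 to 0.0181 with 1 library left out), Glul (0.0188, 0.0262, and -0.0326 to 0.0256 in the same order), Aqp4 (-0.0222 to 0.0575 with 1 library left out) and Serpina3n (-0.0437 to 0.0383). Gja1 in old mice ranged from -0.0294 to 0.124 with 1 library left out. Of all genes, the number called with age over both conditions was 54 as reported, 234 with DESeq2, 192 with no filter on low counts, 300 and 33 with the choroid plexus and nuclear-retained RNA covariates, 90 without the 2 libraries together, and 13 (without old conditioned 61 or 63) to 391 (without young naive 81) with 1 library left out. DESeq2 against edgeR called 38 against 8 genes with age in naive mice, 82 against 5 in conditioned mice, 19 against 11 with training over both ages, 7 against 4 in young and 10 against 2 in old mice, and 1 against 0 for the interaction. The 3 promoter peaks were the same at 500 bp, and at 3000 bp a peak of Gja1 was added; Vim in young mice passed the authors' FDR at 0.01, 0.05 and 0.1. Relative to the median fold of all peaks, conditioned over naive, Vim in young mice was at -1.02, Slc1a2 in young mice at 0.25 and Glul in old mice at 0.25. With 3 libraries a group, only large or steady differences can pass, and Vim has the fewest counts.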
